A study of Mus musculus with 24 samples.

Results

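Skin stem cells of mice were profiled before and after wounding by ATAC-seq, an assay that finds open chromatin by letting a transposase cut it. The 3406 regions described here, of 63188 in all (5.39%), had a peak in both lists of unwounded epidermal stem cells and in all 3 lists of cells taken after a partial-thickness wound, and no peak in the list of hair follicle stem cells. They were chosen by presence in these 6 peak lists alone, so that presence there is a description and not a result. The 2 lists of the full-thickness wound took no part in the choice.

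The mice were a CD1 and C57BL/6J cross. Partial-thickness wounds were made in Krt19-CreER/R26-YFP mice, and wound-responsive progeny of the hair follicle stem cells, so named by the labels, were sorted (3 samples of day 3, 2 of day 7 and 3 of day 80). Full-thickness wounds were made in Sox9-CreER/R26-YFP mice, and the sorted cells were named progeny of the epidermal stem cells (3 samples of day 7 and 2 of day 80). Unwounded Krt19-CreER/R26-YFP mice gave 4 samples of epidermal stem cells from day 0, 3 from day 80, and 4 of hair follicle stem cells from day 0. In both lines a Cre recombinase that tamoxifen activates switches on a yellow fluorescent protein, under the control of Krt19 in one line and of Sox9 in the other, and both genes are active in the hair follicle. Neither the age of the mice nor the way in which cells of the full-thickness wound were assigned to the epidermis is stated in the labels.

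Hair follicle stem cells rest in the bulge of the follicle and renew hair, while epidermal stem cells in the basal layer renew the skin surface. When the surface is lost, follicle stem cells move up, close the wound and can take up residence in the new epidermis. Each population keeps its own set of distal enhancers open, and the binding of transcription factors such as p63, GATA3, the Grainyhead-like family and AP-2 at such sites is known to shape epidermal identity.

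Each group was deposited as 1 peak list, so groups are compared without a replicate error or a test, and the read depth is unknown. Intervals are exact Clopper-Pearson 95% intervals over regions, cover counting error only and treat regions as independent. The lists held between 29365 and 37214 peaks. Their lowest −log10 p differed widely. It was 39.7, 40.2 and 21.0 on days 3, 7 and 80 of the partial-thickness wound. On days 7 and 80 of the full-thickness wound it was 32.2 and 7.98. In the epidermal lists of days 0 and 80 it was 13.5 and 7.86, and in the hair follicle list 17.3. Absence from a list therefore means that no peak above its own threshold was kept. The lists of days 3 and 7 had the highest of these values, and the part of this in the shares below was not tested. The unwounded epidermal lists were deposited as controls, and the peaks of the day 0 list carry a name for day 7, a day at which the labels hold no unwounded group. At the defining epidermal genes Krt14, Krt5, Trp63 and Itga6, the day 0 epidermal list held 9 of 40 regions and the day 80 epidermal list 19, with 18 in the hair follicle list. At the follicle genes Sox9, Lhx2, Nfatc1, Cd34, Krt15 and Lgr5, the day 0 epidermal list held 16 of 56 regions and the day 80 epidermal list 14, with 33 in the hair follicle list. The follicle markers set the hair follicle list above both epidermal lists. At the 4 epidermal genes the day 80 epidermal list was about level with the hair follicle list. The day 0 epidermal list was below it there and held the fewest of these 40 regions of any list, with none of the 3 regions of Krt5. The partial-thickness lists held 31, 31 and 13 of the 56 follicle regions at days 3, 7 and 80 and the full-thickness lists 12 and 18. Of the 40 regions at the epidermal genes the same lists held 26, 20 and 24, then 21 and 16. At markers of other cells each list held 6 to 12 of 18 melanocyte regions, 0 to 3 of 8 immune regions, 2 to 8 of 13 fibroblast regions, 3 to 9 of 13 endothelial regions and 1 or 2 of the 2 Merkel cell regions. Any part of such cells in the results was not tested.

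Most of the members lay away from gene starts, but 133 of them covered whole promoter windows, the stretch of 250 bases before to 50 bases after a start, at 144 windows of 137 genes. The promoters shown are the 3 whose regions ranked highest in the weakest of the 5 lists that the choice required, and that of Cldn4, a tight junction gene of the listed cell junction group. The lowest percentiles by score of their regions in those lists were 83.3 for Aadacl2, 73.8 for Slc9a9, 63.6 for Cyp3a13 and 14.1 for Cldn4. They come from RefSeq (build GRCm38.p6, the assembly of mm10) and run 5′ to 3′ along the gene's strand, and capitals mark matches to 1 of 10 short motifs searched on both strands. The windows are chr3:60006493-60006792 (plus strand) for Aadacl2, a member of the arylacetamide deacetylase family, chr9:94669642-94669941 (plus strand) for Slc9a9, a sodium/proton exchanger gene, chr5:137921570-137921869 (minus strand) for Cyp3a13, a cytochrome P450 gene, and chr5:134946885-134947184 (minus strand) for Cldn4.
Aadacl2: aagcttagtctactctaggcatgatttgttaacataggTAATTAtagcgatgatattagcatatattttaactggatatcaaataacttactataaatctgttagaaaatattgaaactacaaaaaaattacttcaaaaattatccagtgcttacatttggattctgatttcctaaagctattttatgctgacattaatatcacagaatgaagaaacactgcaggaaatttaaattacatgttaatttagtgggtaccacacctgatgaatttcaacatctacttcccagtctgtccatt
Slc9a9: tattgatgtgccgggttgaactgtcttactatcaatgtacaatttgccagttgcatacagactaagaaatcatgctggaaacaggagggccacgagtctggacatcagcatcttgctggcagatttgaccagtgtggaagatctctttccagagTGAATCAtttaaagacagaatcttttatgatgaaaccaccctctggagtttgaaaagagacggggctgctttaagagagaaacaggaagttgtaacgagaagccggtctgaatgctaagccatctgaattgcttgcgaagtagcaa
Cyp3a13: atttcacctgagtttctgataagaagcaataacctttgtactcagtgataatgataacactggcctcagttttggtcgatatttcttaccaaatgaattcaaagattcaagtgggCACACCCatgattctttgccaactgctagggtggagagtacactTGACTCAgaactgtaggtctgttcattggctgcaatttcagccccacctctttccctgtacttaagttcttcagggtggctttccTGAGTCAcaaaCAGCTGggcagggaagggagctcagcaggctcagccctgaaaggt
Cldn4: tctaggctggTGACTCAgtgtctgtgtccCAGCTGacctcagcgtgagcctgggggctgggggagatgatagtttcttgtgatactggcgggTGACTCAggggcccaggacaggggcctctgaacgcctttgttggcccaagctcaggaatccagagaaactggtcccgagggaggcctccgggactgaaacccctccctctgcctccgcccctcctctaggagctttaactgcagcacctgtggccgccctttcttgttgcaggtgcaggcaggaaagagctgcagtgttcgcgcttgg

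The Cldn4 and Cyp3a13 windows each held 2 matches to the AP-1 letters and 1 to the E-box letters, the Slc9a9 window 1 AP-1 match and the Aadacl2 window 1 match to the LHX letters. The windows of Tgfa, a ligand of the EGF receptor, and Ppara, a nuclear receptor of lipid metabolism, held no match to any of the 10 motifs. Over all member windows, the AP-1 letters TGANTCA, bound by Fos and Jun proteins, stood in 23 of 144 (16.0%), against 6.99% of all 21263 promoter windows and 5.12% of the 10486 windows that lay wholly within any region. The E-box letters CAGCTG stood in 24.3% of member windows, against 15.6% of all windows and 14.0% of those within any region. The CTCF letters CCACNAGG stood in 11.1%, against 5.06% and 5.34%, the GATA letters AGATAA in 12.5%, against 9.65% and 5.35%, and the KLF letters GGGTGTG in 13.2%, against 8.02% and 8.46%. The SOX letters ACAATG were the less frequent in members, with 5 windows (3.47%), against 2339 of all 21263 windows and 6.13% of those within any region. The TEAD letters GGAATG (14.6%, against 13.6% and 11.1%) lay closer to the other windows. The LHX letters TAATTA stood in 8 member windows (5.56%), near the 4.53% of all windows but above the 2.13% of those within any region. The p63 motif, a pair of CATG runs 5 bases apart, and the GRHL letters AACCGGTT were found in 0 of 144 member windows and in 0.428% and 0.179% of all windows. A count of 0 of 144 allows a share of up to 2.08%, taken as 3 counts of the total and not as an exact interval. Base composition differed too, with a median GC content of 60.2% in member windows, 56.3% in all windows and 62.3% in windows within any region, and its part in these shares was not tested. A match is only a run of letters, and windows of neighbouring starts overlap.

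The full-thickness wound lists held nearly all of the members. The day 7 list held 3205 of 3406 (94.1%, 93.3 to 94.9) and the day 80 list 3219 (94.5%, 93.7 to 95.3), beside backgrounds of 58.0% and 51.1% over all 63188 regions and of 56.5% and 52.9% over the 58445 that any other list held. A closer background is the 8656 regions that both epidermal lists held and the hair follicle list lacked, of which the members were 39.3%. Of all 8656, the day 7 full-thickness list held 57.1% and the day 80 list 80.3%. High shares were not particular to the members. Of the 14729 regions that met every other condition but had a hair follicle peak, these lists held 96.4% and 97.6%.

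The rest of the 8656 epidermal regions that the hair follicle list lacked stood apart from the members at day 7. Of the 2581 that the partial-thickness lists held at day 80 and not at day 3 or 7, the day 7 full-thickness list held 21.0% (19.4 to 22.6), which is 73.1 percentage points below the members. Of the 911 in no partial-thickness list it held 9.55% (7.72 to 11.6), and of the other 1758, present at day 3 or day 7 but not at all 3 times, 63.3% (61.0 to 65.5). At day 80 the full-thickness shares of these groups were 74.3% (72.6 to 76.0), 40.7% (37.5 to 44.0) and 82.1% (80.3 to 83.9), all below the 94.5% of the members. The day 80 share of members rests on counting any overlap: where the peaks of a list had to cover 50% of a region, 1932 members were left and 48.7% of them were in the day 80 full-thickness list, whose peaks are the narrowest (median 460 bp), while 92.3% were in the day 7 list. Seen from the other side, and again with any overlap, members were 64.8% of the 4946 of these 8656 regions that the day 7 full-thickness list held and 46.3% of the 6952 that the day 80 list held.

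**Figure D1:**
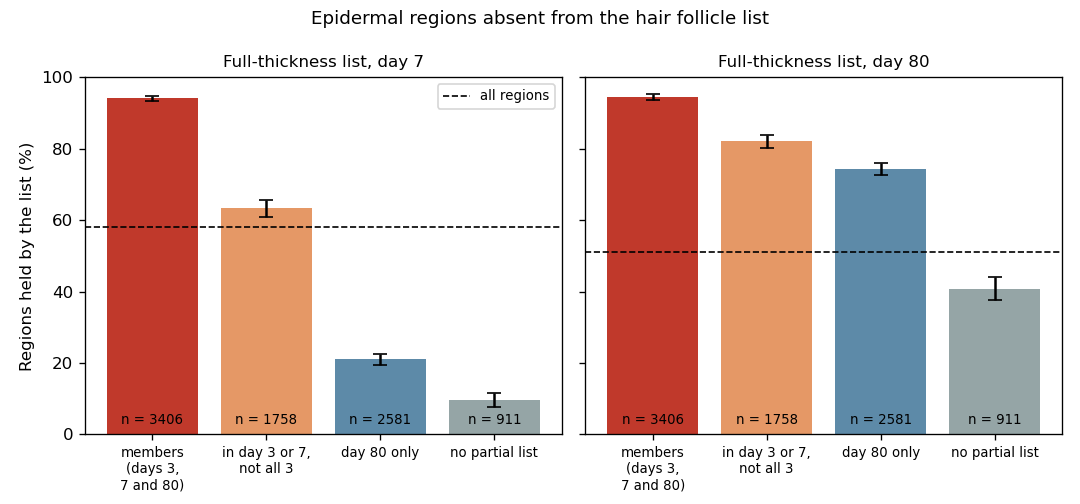
Share of epidermal regions that the hair follicle list lacked (y axis, %) that each full-thickness list held, for members, regions in the day 3 or 7 partial-thickness list but not in all 3, regions of the day 80 partial-thickness list only and regions of no partial-thickness list; bars are shares, whiskers exact 95% intervals and the dashed line the share of all regions. Members stand at 94.1% and 94.5%, and the regions of day 80 only at 21.0% at day 7 and 74.3% at day 80.

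Epidermal regions that the partial-thickness lists held at day 80 only are called regained here. This is only a name for the group, since the hair follicle list lacked them too. At day 7 the gap between members and regained regions was present in weak and strong regions of unwounded epidermis. Members had a median percentile of 55.3 by score within the day 0 epidermal list, against 40.5 for the regions regained at day 80 only and 22.3 for those in no partial-thickness list. That list was divided by score into 5 bins of equal size. Within the weakest bin, the day 7 full-thickness list held 383 of 416 members (92.1%, 89.0 to 94.5) and 97 of 546 regained regions (17.8%, 14.6 to 21.2). Within the strongest bin it held 572 of 597 members (95.8%, 93.9 to 97.3) and 63 of 212 regained regions (29.7%, 23.7 to 36.4). The day 80 full-thickness share of members was 83.7% in the weakest bin and 99.7% in the strongest. For regained regions it was 56.0% and 94.8%, and for the regions present at day 3 or 7 but not at all times 68.2% and 98.7%, so at day 80 the groups lay closer together in the strongest bin than in the weakest.

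**Figure D2:**
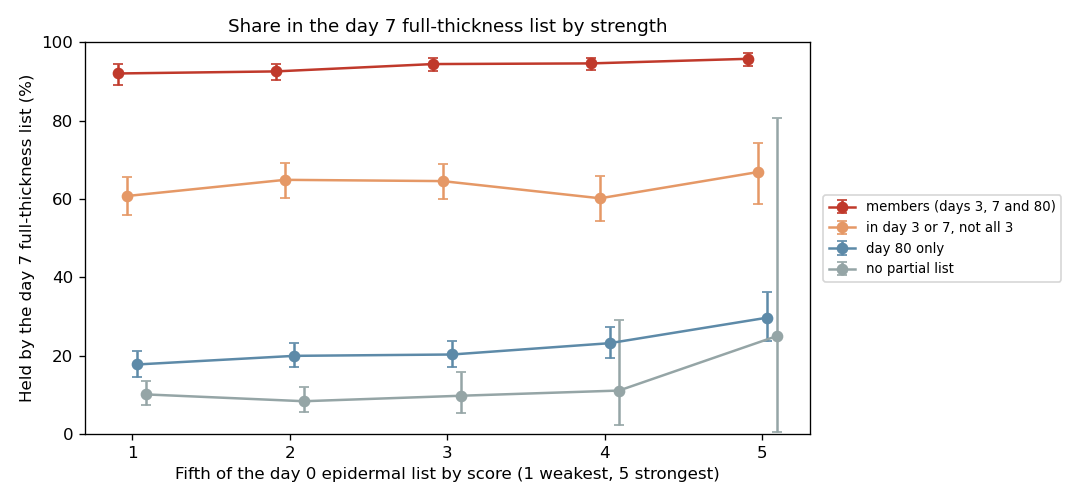
Share held by the day 7 full-thickness list (y axis, %) for the same 4 groups of regions, by 5 bins of equal size of the day 0 epidermal list by score (x axis, weakest to strongest); points are shares and whiskers exact 95% intervals. Members lie between 92.1% and 95.8% in all 5 bins, and regained regions between 17.8% and 29.7%.

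Counting any overlap, both full-thickness lists held 3044 members (89.4%), the day 7 list alone 161, the day 80 list alone 175, and neither held 26 (0.763%, 0.499 to 1.12). Where peaks had to cover 50% of a region, the share in neither list was 4.45%. The 175 missing at day 7 only ranked low in the day 3 partial-thickness list, with a median percentile of 20.1, while their median was 51.5 in the day 0 epidermal list. The 161 missing at day 80 only ranked low in unwounded epidermis, with medians of 29.6 at day 0 and 30.8 at day 80. The 26 in neither had medians between 22.2 and 31.3 in the 5 lists that the choice required. They included the only region near each of Akr1b7, an aldo-keto reductase gene, Defb6, a beta-defensin gene, Gpa33, a cell surface antigen gene, and Lpo, the lactoperoxidase gene. Others lay near Arhgef33, Eny2 and Ctnna1, the gene of alpha-catenin, and 1 of the 5 members of Stxbp4, a gene of a syntaxin-binding protein, was among them.

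Members were mid-ranking peaks of their lists. Their median percentile by score was 49.9, 55.5 and 55.1 on days 3, 7 and 80 of the partial-thickness wound, 62.5 and 62.9 on days 7 and 80 of the full-thickness wound, and 55.3 and 52.4 in epidermis of days 0 and 80. The top 10% of a list took in 3.70% of members at day 3 of the partial-thickness wound and 9.14% at day 7 of the full-thickness wound, against 10.1% of all regions of each list. The authors' fold enrichment of a peak over its local background had a median of 8.78, 10.6 and 9.69 in the partial-thickness lists, 8.76 and 10.2 in the full-thickness lists, and 8.24 and 8.32 in the epidermal lists. Over all regions of the same lists it was 8.66, 10.2 and 9.20, then 8.16 and 8.96, then 7.80 and 7.89.

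**Figure D3:**
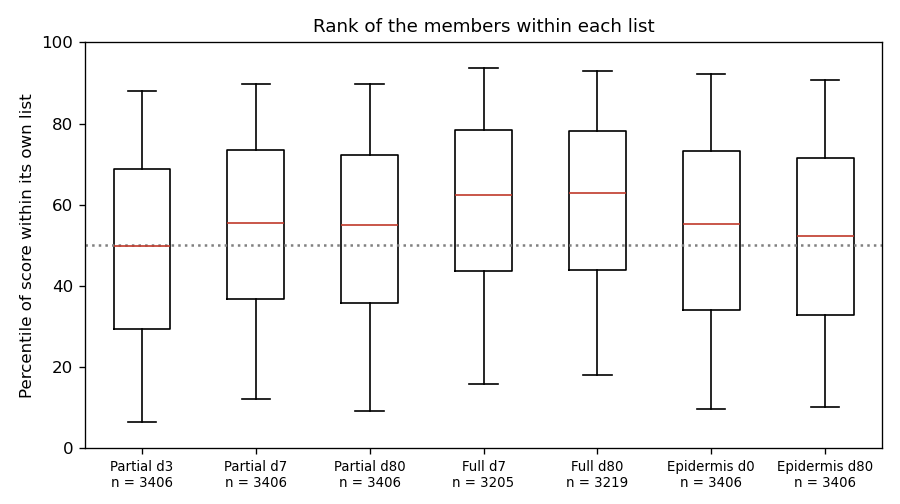
Percentile of the members' strongest peak by score within its own list (y axis) for the 7 lists that hold members (x axis); the line is the median, the box the middle 50% and the whiskers the 5th and 95th percentiles. The lowest median is 49.9, on day 3 of the partial-thickness wound, and the highest 62.9, on day 80 of the full-thickness wound.

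The order of members by strength was shared more within 2 sets of lists than between them. One set was the early wound lists and the other the later and unwounded lists. Across members, which share their libraries and are not independent, Spearman's rho was 0.67 between days 3 and 7 of the partial-thickness wound and 0.63 between day 3 and the day 7 full-thickness list. Between day 3 and the day 0 epidermal list it was 0.23, and between day 80 of the same wound and the day 80 epidermal list 0.63 (n = 3406, or 3205 with the day 7 full-thickness list). The 2 epidermal lists had 0.68. Over the 13929 regions of all 8 lists these values were 0.86, 0.80, 0.53, 0.74 and 0.80. Over members, rho was 0.54 or higher within the sets. Between them it reached 0.49, for day 7 of the partial-thickness wound and the day 80 full-thickness list (n = 3219). Summits lay in the same places. The day 3 summit was within 100 bp of the day 0 epidermal summit in 82.4% of members, the day 7 full-thickness summit in 83.1% and the day 80 epidermal summit in 84.6%, against 77.1%, 73.1% and 80.8% of the regions of all 8 lists.

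The members were distal. Of 2191 members whose nearest protein-coding gene had a listed start, 164 (7.49%, 6.42 to 8.67) lay within 1 kb of a start, against 22.6% of all regions and 61.4% of the regions of all 8 lists. This is a trait they share with the epidermal regions that were not members (7.63%, 6.73 to 8.60). Within these, the regained regions had 4.30% (3.36 to 5.42), those in no partial-thickness list 11.8% (9.29 to 14.8) and the rest 10.3% (8.57 to 12.3). Of all members, 1718 (50.4%) overlapped a protein-coding gene, 1061 (31.2%) lay within 50 kb of one and 627 (18.4%) farther away. Their median width was 1097 bp, against 910 bp for regained regions and 951 bp for all. The nearest hair follicle peak was at a median of 14933 bp from a member and 20348 bp from a regained region, and 609 members (17.9%) had one within 5 kb, against 17.7% of regained regions.

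At most of their genes the start itself was accessible in the hair follicle list, as it was at genes of other regions. Of 1564 genes with a distal member and a listed start, 1046 (66.9%) had a hair follicle peak within 1 kb of a start, against 66.2% of the 1191 genes with a distal regained region and 60.3% of the 8764 genes with any distal region. The day 3 partial-thickness list had 71.2% of the 1564 starts, against 63.4% of the 8764, and the day 0 epidermal list 68.5%, against 58.6%. Of the 2138 genes nearest to a member, 1742 (81.5%) had some region in the hair follicle list, against 81.5% of the 1571 genes with a regained region and 80.2% of the 15024 genes with any region. A region regained at day 80 only lay near 534 of the 2138 genes (24.98%), against 1571 (10.5%) of the 15024. A closer background is the 4075 genes with an epidermal region that the hair follicle list lacked. Of these, 1571 (38.6%) had a regained region, and by definition they include every gene with one. The share at genes with a member was thus above that of all genes with a region and below that of the closer background.

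The edges of the choice were as follows. The member nearest to a hair follicle peak, at Deptor (chromosome 15, 55134530 to 55136048), lay 94 bp from it, and the smallest hair follicle overlap among regions that met every other condition was 224 bp, at Ndfip2. A further 14729 regions met all conditions but absence from the hair follicle list, and 515 of them had their hair follicle peak in the weakest 10% of that list. The regions that missed only the day 3 list of the partial-thickness wound numbered 1000. Those that missed only day 7 of the same wound numbered 236 and only day 80 332. Those that missed only an epidermal list numbered 519 (day 0) and 616 (day 80). In the same order, the day 7 full-thickness list held 60.6%, 69.1%, 75.3%, 92.7% and 90.3% of these regions. The day 80 full-thickness list held 88.4%, 78.8%, 75%, 71.5% and 77.3%.

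Members were spread over many genes, 1652 of the 2138 with 1 member, 371 with 2, 80 with 3 and 35 with 4 or more. Auts2, a chromatin regulator gene of very large span (chromosome 5, 131437333 to 132543220), had 6 among 51 regions. All 6 were in both full-thickness lists, as were 89.4% of all members. Stxbp4, Camk1d, a calcium-dependent kinase gene, and Mast4, another kinase gene, had 5 each. Smaller genes stood beside them with 4 each. Ly6e, which encodes a GPI-anchored surface protein (chromosome 15, 74955025 to 74959904), had 4 members among 6 regions, and Plbd1, of the phospholipase B family, 4 among 7, and the hair follicle list had 0 regions at either gene. Agpat3, an enzyme gene of phospholipid synthesis, had 4 among 9, Fzd10, a Wnt receptor gene, 4 among 10, and Klf7, a Kruppel-like factor gene, 4 among 10. Galnt7, a glycosyltransferase gene, Lamc1, a laminin chain gene, and the cation channel gene Trpm1 had 4 among 11 each.

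The 10 strongest members were taken by their lowest percentile over the 5 lists that the choice of members required, so that their high ranks in those lists are fixed by this order. The first, inside Zdhhc21, a palmitoyltransferase gene (chromosome 4, 82850135 to 82851312), stood at percentiles 96.3, 95.6 and 98.8 on days 3, 7 and 80 of the partial-thickness wound. It stood at 96.0 and 98.3 in the full-thickness lists and at 98.7 and 95.4 in the epidermal lists, with an authors' fold enrichment between 11.3 and 17.7. A member inside Msmo1, a gene of sterol synthesis (chromosome 8, 64725832 to 64727041), stood between 92.0 and 99.6, and one inside Cntn1, a contactin gene (chromosome 15, 92293202 to 92294476), between 92.1 and 99.8. The other 7 of the 10 strongest lay at Efcab1, Zfp608, Fabp12, Adgra1 and Abhd17c and in 2 places with no protein-coding gene within 50 kb. All 10 were in both full-thickness lists, which took no part in the order, at percentiles between 90.7 and 99.8. Of all members, 89.4% were in both of these lists.

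The largest group of neighbouring members, each within 50 kb of the next, lay beside Tfap2c, the gene of the AP-2 gamma factor of surface ectoderm and epidermis. The 7 members spanned 186546 bp of chromosome 2 (172590589 to 172777134), from 31967 to 217641 bp beyond the gene's end, and 6 of them had no protein-coding gene within 50 kb. The third, at 172661229 to 172662429, ranked highest, with percentiles between 87.6 and 95.8 in the 7 lists that held it. The first, nearest to the gene, was weak at day 3 (1.38) and was absent from the day 7 full-thickness list. Of the 16 regions in the span, the hair follicle list held 4, the partial-thickness lists 11, 13 and 14 at days 3, 7 and 80, the full-thickness lists 12 and 11, and the epidermal lists 12 and 16.

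**Figure D4:**
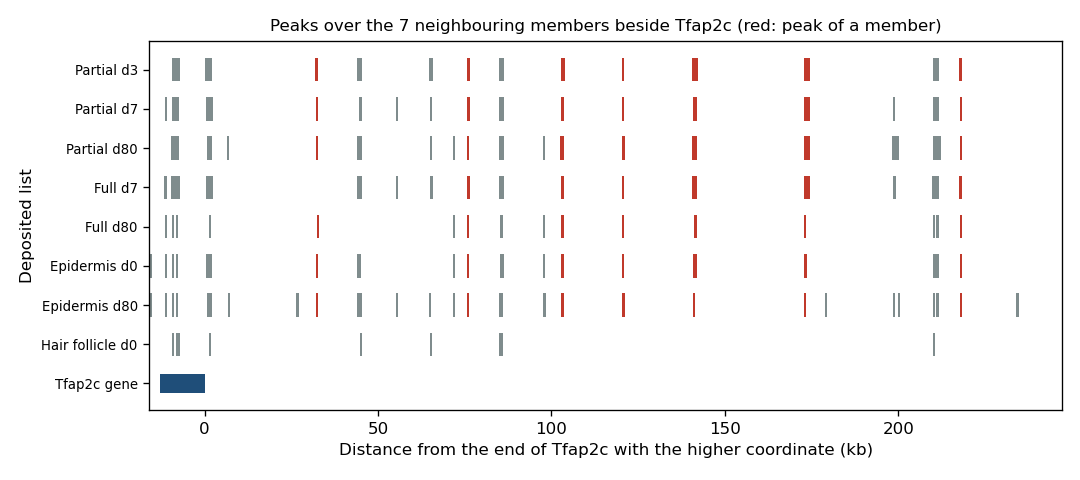
Peaks of the 8 lists (rows) beside Tfap2c by distance from the end of the gene with the higher coordinate (x axis, kb); red marks peaks of members, grey other peaks, and the blue bar the gene. The 7 members recur in every list but that of the hair follicle, with 1 missing from the day 7 full-thickness list.

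Among epidermal fate factors 13 of 20 genes had a member, and 15 of their 162 regions were members (9.26%), beside 5.26% of all regions assigned to a gene. Of their 28 epidermal regions that the hair follicle list lacked, 15 (53.6%) were members, beside 40.4% over all genes. Gata3 and Tfap2a had 2 each, and among the others Trp63, Grhl1, Grhl2, Grhl3, Prdm1, Zfp750, Cebpa, Cebpb, Tfap2b and Tfap2c had 1 each. The member inside Grhl2, which encodes a factor of epithelial junction genes (chromosome 15, 37281616 to 37282383), had percentiles of 82.0, 70.6 and 77.8 in the partial-thickness lists, 94.5 and 84.5 in the full-thickness lists and 72.6 and 82.1 in the epidermal lists. The single member of Trp63, which encodes p63 of stratified epithelia, lay 18219 bp from the gene (chromosome 16, 25910307 to 25914186). It had percentiles of 43.5, 79.1 and 70.0 in the partial-thickness lists, 77.6 and 26.3 in the full-thickness lists, and 6.89 and 26.0 in the epidermal lists. Klf5, Krt14 and Krt5 had no member. At Krt14 and Krt5 there was no epidermal region that the hair follicle list lacked, so none could be a member.

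Cell junction genes had 9 members among 96 regions (9.38%), and 9 of their 14 epidermal regions outside the hair follicle list (64.3%) were members. Cdh3, the P-cadherin gene, had 3 and its neighbour Cdh1, the E-cadherin gene, 2, all in both full-thickness lists, as were 89.4% of all members. Pkp1, a desmosomal plaque gene, had 2, and Cldn4 and the desmoglein gene Dsg2 1 each. Basement membrane genes had 3 of 120 regions (2.50%), at Itga2, Lama3 and Dst, and 3 of their 10 epidermal regions that the hair follicle list lacked. This group does not include the laminin chain gene Lamc1, which had 4 members among 11 regions. Terminal differentiation genes had 5 of 74 (6.76%), and 5 of 12 (41.7%) on the narrower count, 2 at Calml3 and 1 each at Ivl, Dsc1 and Tgm3. Epidermal stem cell genes had 1 of 44 regions (2.27%), and 1 of 2 on the narrower count, which was 1 of the 16 regions of Lrig1.

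BMP and TGF-beta genes are given by role. Members were 4 of 48 regions (8.33%) at ligand genes, 7 of 90 (7.78%) at receptor genes and 11 of 116 (9.48%) at effectors and inhibitors. The share was 5.26% over all regions assigned to a gene. Among epidermal regions that the hair follicle list lacked, members were 40.4% and regions regained at day 80 only 29.1% over all genes. Ligand genes had 4 members (25%) and 8 regained among 16 such regions. Receptor genes had 7 of 17 (41.2%) with 2 regained, and effectors and inhibitors 11 of 21 (52.4%) with 4 regained. Regained regions were also 5 of 10 at basement membrane genes, 6 of 13 at EGF receptor pathway genes and 5 of 12 at terminal differentiation genes. Bmp4 had 1 member and 4 regained regions, and Tgfb2 1 and 3. The Bmp4 member (chromosome 14, 46397339 to 46399088), 6670 bp from this BMP ligand gene, ranked at 6.27, 55.1 and 66.5 over the 3 times of the partial-thickness wound, at 56.4 and 76.9 in the full-thickness lists, and at 88.5 and 90.7 in the epidermal lists. The Tgfb2 member (chromosome 1, 186585893 to 186587639), 35148 bp from this TGF-beta ligand gene, ranked at 17.0, 47.8 and 90.1, at 64.2 and 96.0, and at 96.9 and 96.0 in the same order. The Bmp2 member ranked at 26.9, 66.6 and 84.3 in the partial-thickness lists and at 96.9 and 94.4 in the epidermal lists. These 3 ligand members were low among the day 3 peaks and high among those of unwounded epidermis. The fourth, 638 bp from Tgfb1, was low in both, at 4.53 on day 3 and at 1.30 and 26.5 in the epidermal lists. Some members of the pathway, picked after their values were seen, stood the other way. One of 2 near Bmpr2, a BMP receptor gene, ranked at 94.9 at day 3 and 54.2 in the day 0 epidermal list, and one inside Smurf1, a ubiquitin ligase gene of the pathway, at 92.6 and 45.4. The other Bmpr2 member ranked at 47.8 and 1.30. Bmpr1b and Tgfbr3, both receptor genes, had 2 members each, and the type II receptor gene Tgfbr2 had 1, at 4.53 at day 3 and 1.30 in the day 0 epidermal list. Smad3, a TGF-beta effector gene, had 3 members and Id3, a BMP target gene, 2.

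**Figure D5:**
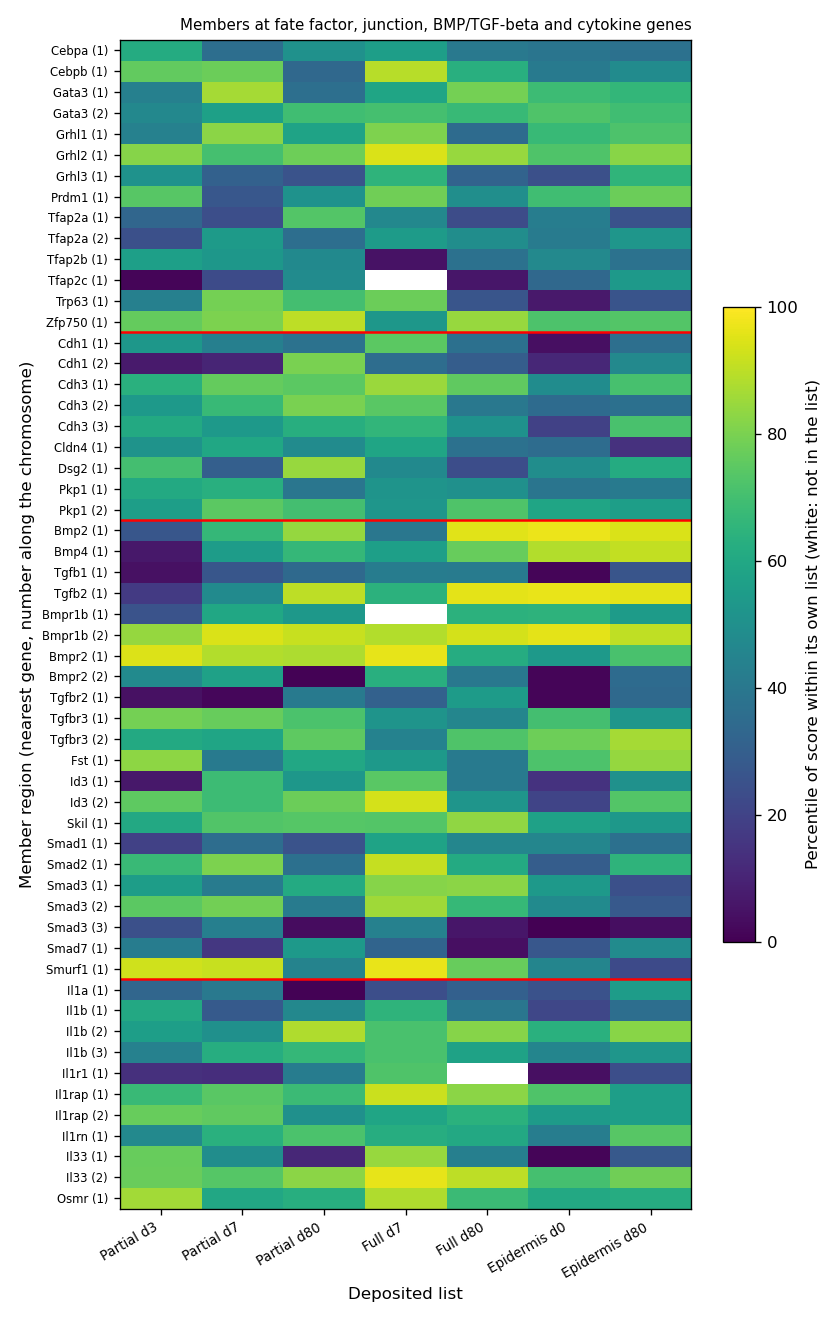
Percentile of each member by score within its own list (colour, white where the list lacks it) in the 7 lists (columns), for members nearest to genes of epidermal fate factors (1 gene left out), cell junctions, BMP and TGF-beta signalling and cytokines (rows, in blocks divided by red lines). The Bmp4, Bmp2 and Tgfb2 members are dark at day 3 (6.27, 26.9 and 17.0) and light in unwounded epidermis.

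Cytokine genes had 11 members among 102 regions (10.8%), and 11 of 22 epidermal regions absent from that of the hair follicle. Il1b had 3, Il33, an alarmin of barrier cells, and Il1rap, a co-receptor, 2 each, and Il1a, Il1rn, Il1r1 and Osmr 1 each, while the Stat and Socs genes of the list had none. The stronger Il33 member (chromosome 19, 29911777 to 29912549) had percentiles of 77.2, 73.5 and 82.6 in the partial-thickness lists, 96.5 and 89.9 in the full-thickness lists and 70.4 and 78.4 in the epidermal lists. The other had 76.8, 49.1 and 11.2, then 84.5 and 43.2, then 1.30 and 27.8. EGF receptor pathway genes had 7 of 106 regions (6.60%), 3 at Nrg1, 2 at Egfr and 1 each at the ligand genes Areg and Tgfa. Of their 13 epidermal regions that the hair follicle list lacked, 7 (53.8%) were members, beside 40.4% over all genes. Nuclear and hormone receptor genes had 12 of 193 (6.22%), and 12 of 36 (33.3%) on the narrower count. They lay 2 each at Esrrg, Thrb, Ghr and Rora and 1 each at Vdr, Nr3c1, Rxra and Ppara. Notch genes had 5 of 110 (4.55%), 2 of them at the receptor gene Notch2. Notch3 had none, and no epidermal region that the hair follicle list lacked, so none could be a member there. Wnt genes had 6 of 122 (4.92%), 2 at Wnt7b, without Fzd10, which is not in this group and had 4 members among 10 regions. AP-1 genes had 2 of 66 (3.03%), at Batf and Batf3. Among epidermal regions that the hair follicle list lacked, members were 5 of 12 (41.7%) at Notch genes, 6 of 16 (37.5%) at Wnt genes and 2 of 4 at AP-1 genes.

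Hair follicle stem cell genes had 1 member among 173 regions (0.578%), a share that the absence from the hair follicle list lowers by construction. Of their 9 epidermal regions that this list lacked, 1 (11.1%) was a member and 5 were regained, beside 40.4% and 29.1% over all genes. The member lay 841 bp from Cd34, a bulge surface marker (chromosome 1, 194962133 to 194963397). It ranked at 96.9, 92.2 and 30.9 over the 3 times of the partial-thickness wound, at 77.3 and 62.5 in the full-thickness lists, and at 71.4 and 24.1 in the epidermal lists. Sox9 and Lgr5 had no member, and no epidermal region that the hair follicle list lacked, so none could be a member there. Endothelial genes had 2 members among 21 regions (9.52%), both at Pecam1. The listed melanocyte (22 regions), immune (11), fibroblast (23), sebaceous (20) and Merkel cell genes (10) had 0. They had only 2, 1, 2, 1 and 0 epidermal regions that the hair follicle list lacked. The melanocyte list does not include Trpm1, which had 4 members among 11 regions. With genes assigned within 10 kb only, counts of members differed by over 1.5 times in 8 of 21 lists, among them fate factors (8 members), BMP and TGF-beta effectors and inhibitors (6), cytokines (5), Notch (3), Wnt (1) and terminal differentiation (0). Counts at gene lists were not tested, and a region near a gene is not shown to act on it.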

How the data were processed

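The 8 deposited peak lists, 1 per group of 2 to 4 samples, have narrowPeak columns. The submitters' processing notes name MACS2 2.1.1.20160309, bedtools 2.29.2, Picard and Bowtie, with build mm10, and give neither role nor order. Whether reads were pooled is not stated in the labels. The deposited score equals 10 times the −log10 q, the deposited fold enrichment is a ratio over local background, and the deposited −log10 p belongs to its own list, so strength is given as a percentile by score within a list. The unwounded epidermal lists were matched to their groups by elimination, being deposited as controls.

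All 267990 peaks were merged where they overlapped (Python 3.11.15, pandas 2.3.3), and a list held a region from 1 bp of overlap. The merging and the choice of members were tested on simulated data. Genes were the 21887 protein-coding ones of RefSeq GRCm38.p6, the nearest within 50 kb. Starts came from a RefSeq promoter table with 17492 of these genes, so shares at starts use regions of those genes. No genome was used, so distal sequences, exons and introns were not analysed here. Of 258 listed genes, 2 were not matched by symbol.

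No test between groups was run. The members and lists were chosen with earlier results of these data known. Named were the 12 genes with most members, up to 3 per list, 8 by members in neither full-thickness list, the 10 strongest members and 12 fixed genes. Others named, such as the rest of a list's genes with members, Tfap2c, Deptor, Ndfip2 and the promoters, were chosen after values were seen, as was the split into 5 bins. The values of 1 gene are not reported here.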

Additional observations from a re-analysis of the deposited data

How the results depend on the processing

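The contrast between members and regained regions in the day 7 full-thickness list, 73.1 percentage points, lay between 73.1 and 76.4 under all 6 alternatives (74.2 with at least 50% of a region under peaks, 76.2 with lists of equal length, 76.4 with the upper 50% of peaks by score). These alternatives for the contrast were chosen after seeing the data. The number of members was 1932 under the 50% rule and 672 with the upper 50% of peaks. The cut to the upper 50% was made in every list but that of the hair follicle, which was kept whole. Under it, a region whose day 3 or day 7 peak fell below the cut counted as absent there. The day 7 full-thickness share of members was 92.3% under the 50% rule and 92.6% with lists of equal length. The day 80 full-thickness share was 48.7% under the 50% rule and 91.5% without the day 0 epidermal list. The share in neither list was 4.45% under the 50% rule, 1.18% with lists of equal length and 1.12% without the day 0 epidermal list. The causes were not tested. Within 2 kb of a start lay 9.13% of members. With genes assigned within 10 kb, 8 of 21 gene lists had a count of members that differed by over 1.5 times, and with 100 kb none did. At 10 kb members were 7.92% of the regions of fate factors and 7.35% of those of cytokines, beside 4.90% of all regions assigned. In the central 200 bp of promoters, 3 of 10 motif shares left their interval (LHX, E-box and TEAD), and AP-1 had 11.1% against 4.93% of all. No paired analysis was possible because each group is 1 list, and for the same reason no replicate could be left out. Depth is unknown, so a weak region cannot be told from an absent one.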

Other observations

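Some members lay in groups. Of 3406 members, 1234 (36.2%) lay within 50 kb of another, in 400 pairs, 96 trios and 32 larger groups. By the same measure 782 of 2581 regained regions (30.3%) lay near another of their kind. The share was 60.1% for the 8656 epidermal regions that the hair follicle list lacked and 95.2% for all 63188 regions. It depends on how many regions are counted. Beside the group of 7 near Tfap2c, 6 members stood within 100968 bp at Ifnar2 and Il10rb, receptor chain genes for interferon and interleukin signals, 6 within 117974 bp at Agpat3 and Cstb, a cysteine protease inhibitor gene, and 6 within 121182 bp at Fzd10 and Piwil1. Groups of 5 lay at Plbd1 and Gucy2c, within 67914 bp, and at Ly6m and Ly6e, within 78318 bp. A group of 6 on chromosome 14, within 92250 bp, had no protein-coding gene within 50 kb of any of its members. Members also held the hairpins of 4 microRNAs of the RefSeq table, Mir6387, Mir7008, Mir7229 and Mir5710. These groups were picked after their members were counted, and no test was run on them.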
